A study of Bos grunniens and Bos grunniens x Bos taurus with 6 samples.

Results

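The axoneme is the microtubule core of motile cilia and of the sperm flagellum. Paired outer microtubules carry outer and inner dynein arms, the motors that slide them, while radial spokes, the central pair and the nexin-dynein regulatory complex time the sliding. Parts are carried to a growing cilium by intraflagellar transport (IFT) trains, built of an A and a B complex. Kinesin moves the trains outward and dynein moves them back. In the testis the flagellum grows from a centriole of the round spermatid, after meiosis. The genes described here are those of this machinery, chosen by name: all symbols of the files that begin with CFAP, DNAH, DNAI, DRC or IFT and a number, or with DNAL or RSPH, and that hold at least 5 unique molecular identifiers (UMIs) over all libraries. This gave 61 of 26961 features, and all 61 names of this form reached the minimum. They are 26 CFAP (cilia and flagella associated protein) genes, 11 DNAH genes (dynein heavy chains), 2 DNAI genes (intermediate chains), 1 DNAL gene (DNALI1), 3 DRC genes, 6 RSPH genes (radial spoke proteins) and 12 IFT genes. A further 11239 features carry no symbol and could not be assigned to a family.

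The study measured single-cell RNA in testis of cattle-yak and yak (Bos grunniens) with 10x Genomics droplets, and asked how cell fates change while the yak testis develops. Cattle-yak, the hybrid of cattle and yak, is known for male sterility, and its 1 library is labelled as taken after sexual maturity, with no age. The yak libraries are 2 of 6 months (prepubertal, replicates 1 and 2), 2 of 18 months (adolescent, yet labelled before sexual maturity, replicates 3 and 4) and 1 of 4 years (after sexual maturity, replicate 5). All were made from frozen tissue that was thawed, digested with enzymes and cultured in serum medium, and all carry a germ cell tag although most cells were somatic. Nothing in the labels ties replicates of an age to different animals, so a p-value here reflects how far libraries differ, which may be technical.

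The libraries held 5104 to 8946 barcodes and 9575446 to 24762829 UMIs, and 29240 of 40564 barcodes were kept as cells. Of barcodes with at least 300 genes, the limit on mitochondrial RNA removed 38.0% and 20.3% at 18 months but 2.30% and 3.56% at 6 months. Pairs of libraries shared 5 to 16 barcodes. Germ cells were gated by raw UMIs of marker genes: ACRV1, SPACA1 and SPACA4 for spermatids, CCNA1 with AURKA for late spermatocytes, DMC1 or SPO11 with SYCP1 to SYCP3 for early spermatocytes, and UCHL1, ZBTB16, DMRT1 and MAEL for spermatogonia. The spermatogonium gate took 37 cells of the cattle-yak, 31 and 27 at 6 months, 290 and 278 at 18 months and 204 at 4 years. The early spermatocyte gate took 21 cells of the cattle-yak and 84 at 4 years, while 237 late spermatocytes and 414 spermatids were gated at 4 years; the cattle-yak gave 3 late spermatocytes and 0 of 3642 cells in the spermatid gate, which allows a share of up to 0.0824%, counting error only. The meiotic gates of 18 months went against their label: their UCHL1, a spermatogonial gene, stood at 1485 and 4221 CPM (UMIs scaled to a total of 1000000 over the cells summed), against 1747 and 3742 CPM in the spermatogonia of the same libraries, and their synaptonemal gene SYCP3 was at 51.5 and 145 CPM, against 984 CPM in the early spermatocytes of 4 years. They are not read as spermatocytes below, though the test of gates within libraries includes them.

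Summed over all kept cells, the 61 genes took 7.68 of every 10000 UMIs in the cattle-yak, 5.85 and 5.60 at 6 months, 13.4 and 9.18 at 18 months and 57.4 at 4 years. The 4-year library thus stood above every other library, and the cattle-yak library lay between those of 6 and 18 months. In bulk sums of this kind fewer cells of a type and less RNA per cell cannot be told apart. The IFT genes, which primary cilia of somatic cells also use, took 4.46 per 10000 in the cattle-yak, 3.68 and 3.51 at 6 months, 6.31 and 4.78 at 18 months and 19.6 at 4 years. The radial spoke genes took 0.159 per 10000 in the cattle-yak, 0.078 and 0.092 at 6 months, 0.579 and 0.371 at 18 months and 5.14 at 4 years. At 6 months most UMIs of the spoke genes were of RSPH3 (85 and 64) and RSPH14 (31 and 43), and RSPH1, RSPH4A, RSPH6A and RSPH9 held 0 to 12 UMIs a library. The dynein heavy chains took 0.080 per 10000 in the cattle-yak, 0.078 and 0.048 at 6 months, 1.29 and 0.248 at 18 months and 2.37 at 4 years, so the libraries of 18 months lay far apart, replicate 3 being the higher. Of single genes, 51 of 61 were highest at 4 years, as were 27.8% of all genes with at least 10 UMIs; 8 were highest in replicate 3 of 18 months (CFAP410, CFAP65, DNAH5, DNAH9, DNAH11, IFT88, RSPH4A and RSPH14), IFT46 in replicate 1 of 6 months and CFAP73 in the cattle-yak.

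**Figure D1:**
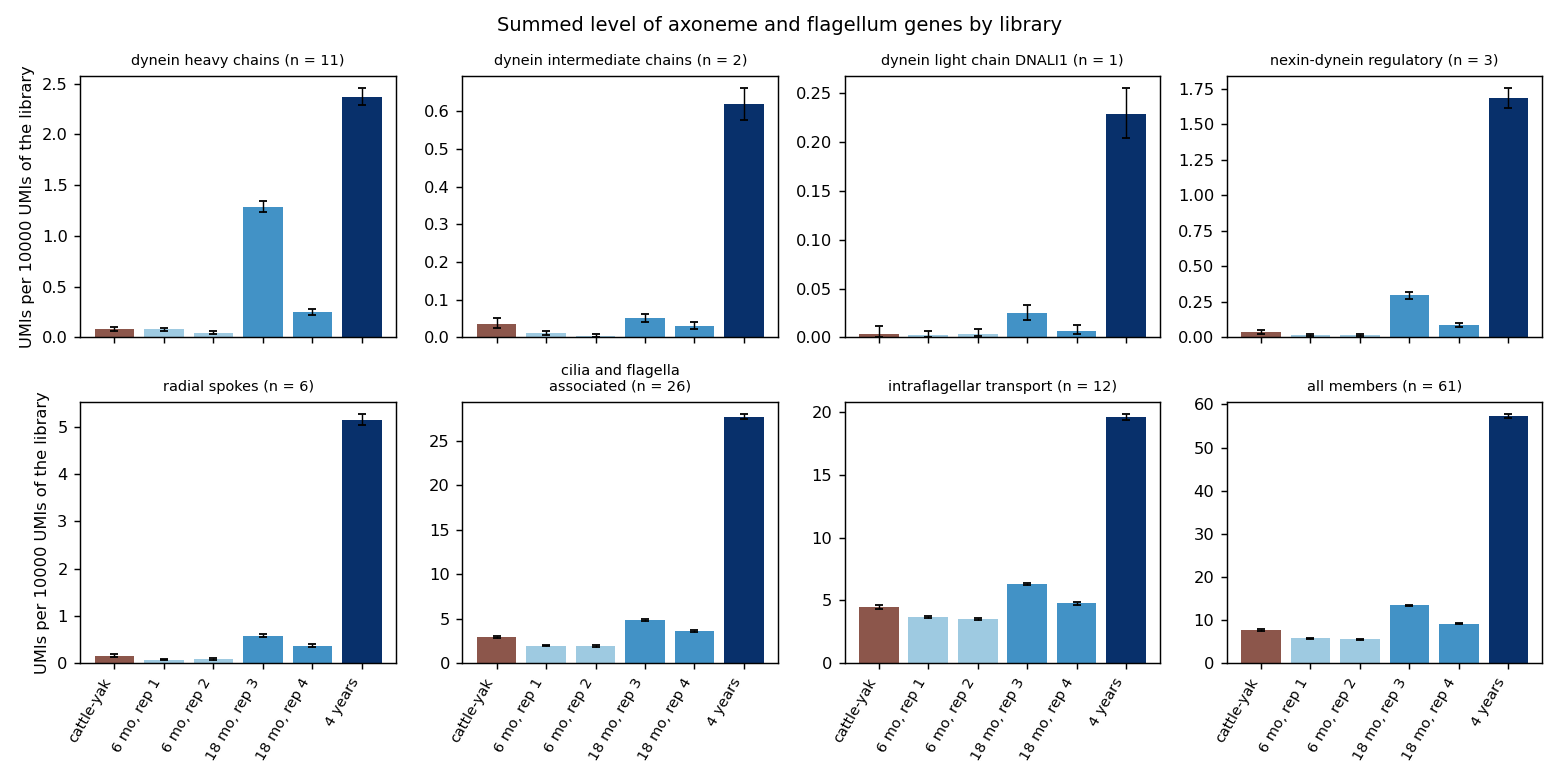
UMIs of each gene family per 10000 UMIs of the library, for the 7 families and for all 61 genes, 1 bar per library with exact Poisson 95% intervals that cover counting error only. For all 61 genes together the 4-year bar stands at 57.4 and the other 5 between 5.60 and 13.4.

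At 4 years against 18 months, about as many genes rose as did not pass the test, and each family held some that rose. With edgeR's quasi-likelihood test on the 5 yak libraries and Benjamini-Hochberg adjustment over 16237 genes, 32 of the 60 genes tested were higher at 4 years and 0 were lower, where 11.9% of all genes were higher and 1.46% lower. At an unadjusted p under 0.05 the counts were 45 higher and 0 lower, where 3101 of all 16237 genes were higher and 1441 lower. DESeq2 gave 34 higher and 0 lower, where it called 1969 of all genes higher and 548 lower. The median log2 fold change was 2.42 for the 60 genes and -0.09 for all genes; scaling by library totals moved the median of all genes to -0.31 and that of the 60 genes to 2.13. The 1 library of 4 years is taken to vary as the younger ones do. Calls were made for 15 of 25 CFAP genes, 5 of 12 IFT genes, 4 of 6 RSPH genes, 3 of 11 DNAH genes, both DNAI genes, 2 of 3 DRC genes and DNALI1. Leaving out a library or changing the scaling, filter or cells kept 26 of the 32 calls in every one of 10 alternatives; CFAP36, CFAP99, DNAI2, IFT27, IFT81 and RSPH3 each lost theirs in at least 1.

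Of the dynein heavy chains, DNAH17, DNAH8 and DNAH6 rose and the other 8 did not pass. DNAH17, the outer-arm heavy chain of the sperm flagellum, had 0 and 0.0732 CPM at 6 months, 0.289 and 0.140 CPM at 18 months and 18.4 CPM at 4 years. DNAH8, its sperm partner in the outer arm, had 0.298 and 0.293 CPM at 6 months, 15.8 and 2.80 CPM at 18 months and 57.5 CPM at 4 years. Both were highest at 4 years, with log2 fold changes over 18 months of 6.58 ± 0.72 (SE) for DNAH17 and 3.04 ± 0.63 for DNAH8 (edgeR quasi-likelihood, Benjamini-Hochberg adjusted p = 0.00137 and 0.0188). The outer-arm heavy chains DNAH5, DNAH9 and DNAH11, known from airway cilia, were among those that did not pass. DNAH5 had 0.238 and 0.146 CPM at 6 months, 8.32 and 1.05 CPM at 18 months and 1.52 CPM at 4 years, and DNAH11 had 0.894 and 0.659, then 27.8 and 5.81, then 7.31 CPM. For both, the 4-year level lay between the 18-month libraries. Their log2 differences between 4 years and 18 months were -1.18 ± 0.98 and -0.80 ± 0.67, and that of DNAH9 was 0.56 ± 0.74 (edgeR, adjusted p = 0.473, 0.478 and 0.658). In gated spermatogonia DNAH11 was present at every yak age, at 34.6 and 28.4 CPM at 6 months, 59.6 and 21.0 CPM at 18 months and 5.67 CPM at 4 years, while DNAH17 had 0 UMIs in the 4 younger libraries and 13 at 4 years. These genes were picked after the values were seen, and the difference between the genes was not tested.

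Of the inner arms, DNAH6 had 0.358 and 0.293 CPM at 6 months, 14.8 and 2.24 CPM at 18 months and 67.8 CPM at 4 years, a log2 fold change over 18 months of 3.42 ± 0.68 (edgeR, adjusted p = 0.0164). The other heavy chains, among them the inner-arm DNAH1, DNAH2, DNAH3, DNAH7 and DNAH10, did not pass. DNAI1, an intermediate chain that ties the outer arm to the microtubule, had 0.119 and 0.146 CPM at 6 months, 1.33 and 0.630 CPM at 18 months and 38.8 CPM at 4 years. Its log2 fold change was 5.54 ± 0.48 (edgeR, adjusted p = 0.000731), and that of its partner DNAI2 was 3.13 ± 0.68 (adjusted p = 0.0235, but 0.0665 without replicate 3 of 18 months). DNALI1, a light chain of inner arms, had 22.9 CPM at 4 years, against 2.49 and 0.699 CPM at 18 months, a log2 fold change of 4.15 ± 0.57 (edgeR, adjusted p = 0.00320).

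Of the radial spoke genes, RSPH1, RSPH3, RSPH6A and RSPH9 rose, and RSPH4A and RSPH14 did not pass. RSPH9, a spoke head protein, had 0.715 and 0.805 CPM at 6 months, 1.97 and 1.40 CPM at 18 months and 305 CPM at 4 years. Its log2 fold change of 7.69 ± 0.50 had the lowest adjusted p of the 60 genes tested (edgeR, 0.000588). RSPH1, also of the head, had 139 CPM at 4 years, against 11.0 and 3.71 CPM at 18 months, a log2 fold change of 4.55 ± 0.59 (edgeR, adjusted p = 0.00264). RSPH3, a protein of the spoke stalk, had 40.2 CPM at 4 years, against 14.1 and 9.23 CPM at 18 months (1.98 ± 0.41, edgeR adjusted p = 0.0186, but 0.101 with library totals). RSPH6A, which in mouse serves the spokes of sperm, had 54 UMIs at 4 years, against 3 and 0 UMIs at 18 months and 0 in both libraries of 6 months; its fitted log2 fold change was 5.56 ± 1.16 (edgeR, adjusted p = 0.0263). RSPH4A, its relative in the spokes of cilia, had 1.01 CPM at 4 years, against 1.85 and 0.560 CPM at 18 months, a log2 difference of 0.06 ± 0.92 (edgeR, adjusted p = 0.973). RSPH14 had 24.5 CPM at 4 years, against 28.8 and 22.2 CPM at 18 months (0.10 ± 0.48, adjusted p = 0.914). In the regulatory complex, DRC3 had 0.894 and 0.586 CPM at 6 months, 4.74 and 1.68 CPM at 18 months and 124 CPM at 4 years, a log2 fold change over 18 months of 5.56 ± 0.50 (edgeR, adjusted p = 0.000806). DRC1 was higher by 2.93 ± 0.62 (adjusted p = 0.0217), while DRC7, at 24.2 CPM at 4 years against 19.2 and 5.74 CPM at 18 months, did not pass (1.30 ± 0.50, adjusted p = 0.145).

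The 2 genes with the largest fitted fold change among the 60 were CFAP genes. CFAP77, a protein of the inside of the outer microtubules, had 0.0596 and 0 CPM at 6 months, 0.173 and 0.210 CPM at 18 months and 65.3 CPM at 4 years, and its fitted log2 fold change was 8.56 ± 0.66 (edgeR, adjusted p = 0.000592). CFAP97D1, needed for the sperm flagellum in mouse, had 759 UMIs at 4 years, against 6 and 1 at 18 months and 0 in both libraries of 6 months (log2 fold change 8.21 ± 0.63, edgeR adjusted p = 0.000810). These are near-absent genes before 4 years. CFAP157, known from mouse sperm, rose by 6.07 ± 0.84 on the log2 scale, CFAP299 by 5.44 ± 0.65, CFAP58 by 5.44 ± 0.74, CFAP161 by 4.45 ± 0.48 and CFAP70 by 3.71 ± 0.47. CFAP36, which binds the small GTPase ARL3, was present in all libraries, with 87.6 and 85.5 CPM at 6 months, 142 and 158 CPM at 18 months and 1148 CPM at 4 years. Its log2 fold change of 3.02 ± 0.63 passed with an adjusted p of 0.0202 (edgeR), which was 0.0713 without replicate 1 and 0.0676 without replicate 2 of 6 months, and 0.0565 in a fit of the 3 libraries of 4 years and 18 months; over all 10 alternatives it ran between 6.17e-06 and 0.0713.

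The transport genes passed the test in part, and the differences between them were not tested. IFT52, of the core of the B complex, had 25.7 and 25.8 CPM at 6 months, 56.3 and 42.6 CPM at 18 months and 561 CPM at 4 years, a log2 fold change over 18 months of 3.67 ± 0.50 (edgeR, adjusted p = 0.00316). IFT57 (2.51 ± 0.45), IFT80 (2.42 ± 0.41), IFT81 (1.95 ± 0.40) and IFT27 (1.81 ± 0.48), all of the B complex, also rose (edgeR, adjusted p = 0.0110, 0.00797, 0.0179 and 0.0485). The last pair lost the call in alternatives: IFT81 had an adjusted p of 0.0529 without replicate 1 of 6 months, and IFT27 had 0.147 without replicate 1 and also without replicate 2 of 6 months. IFT88, another core protein of the same complex, had 28.3 CPM at 4 years, against 37.6 and 19.4 CPM at 18 months, a log2 difference of 0.23 ± 0.42 (edgeR, adjusted p = 0.759). IFT46 did not pass either, with 14.4 CPM at 4 years, against 16.8 and 10.4 CPM at 18 months (0.29 ± 0.45, adjusted p = 0.719). IFT20, the most abundant IFT gene by UMIs, had 197 CPM at 4 years, against 93.6 and 108 CPM at 18 months, and did not pass (1.03 ± 0.58, edgeR adjusted p = 0.293), although without replicate 4 of 18 months its adjusted p was 0.0185. The A-complex genes IFT122 and IFT43 did not pass either (edgeR, adjusted p = 0.143 and 0.0864).

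**Figure D2:**
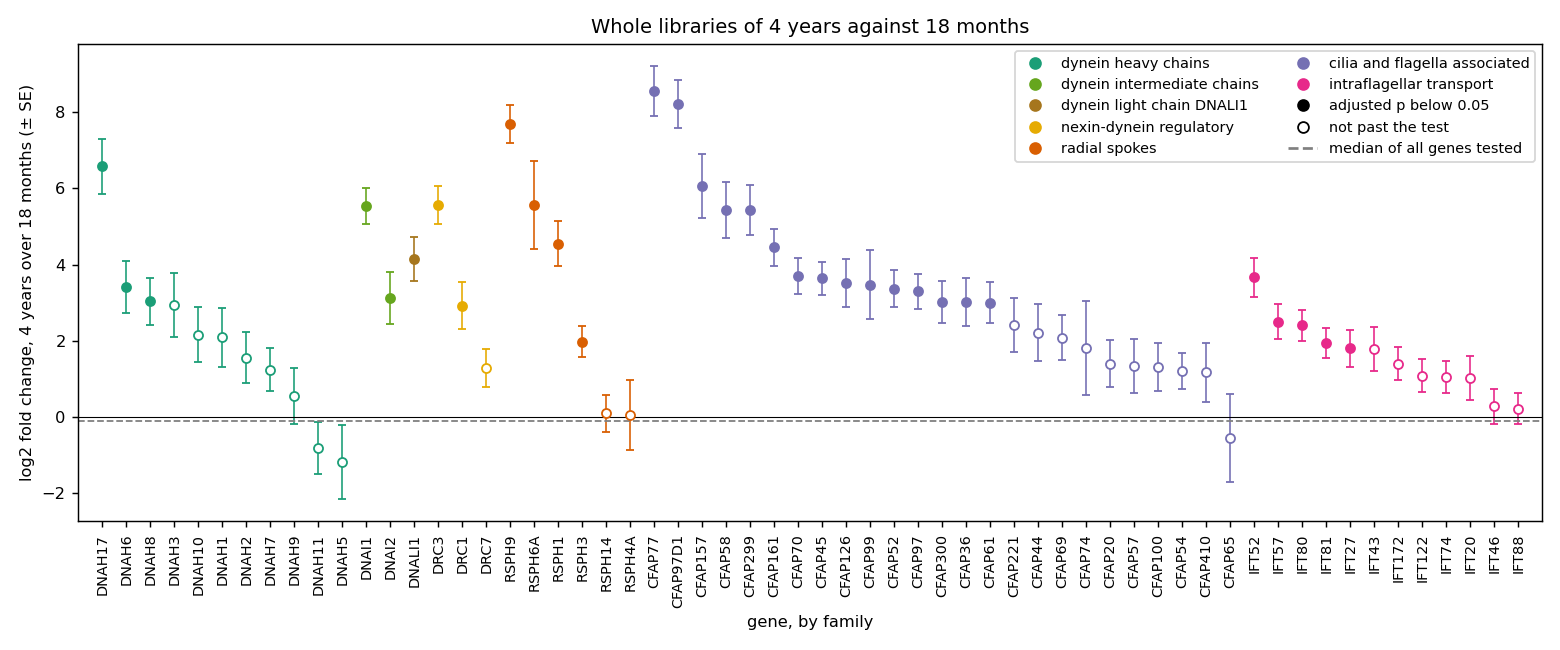
Log2 fold change of 4 years over 18 months (edgeR, with SE) for the 60 genes tested, by family; filled points have an adjusted p under 0.05 and the dashed line is the median of all genes, -0.09. RSPH9, CFAP77 and CFAP97D1 lie highest, and DNAH5, DNAH11 and CFAP65 lie below the line.

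Genes of the same machinery outside these families moved to different extents. Of 39 other axonemal genes tested (tektins, central pair and microtubule inner proteins among them), 31 were higher at 4 years and 0 lower, where 11.9% of all genes were higher and 1.46% lower, led by NME8 (log2 fold change 7.60 ± 0.62), NME5 (6.99 ± 0.69) and RIBC2 (6.81 ± 0.51), with a median of 3.92. Of 12 dynein assembly factors, 4 were higher and 0 lower, with a median of 1.40. ZMYND10 rose by 8.29 ± 0.95, PIH1D2 by 4.03 and SPAG1 by 3.02 on the log2 scale. Of 25 other ciliary transport genes, 4 were higher and 0 lower, a share near that of all genes, led by the kinesins KIF17 (4.24 ± 0.44) and KIF3B (2.67) and by TTC26 (2.20), with a median of 0.96. Of 12 transcription factors of ciliogenesis and spermiogenesis, RFX4 (4.83 ± 0.82), TCFL5 (4.38 ± 0.49) and RFX2 (3.00) were higher and 0 lower, with a median of 1.57. At an unadjusted p under 0.05, and with DESeq2, 0 genes of any of these lists were lower, where 1441 and 548 of all 16237 genes were.

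Efferent ducts and rete testis hold ciliated epithelium, whose RNA uses many of these genes. The 9 of 10 marker genes of such epithelium that are in the files summed to 114 CPM in the cattle-yak, 24.3 and 17.0 CPM at 6 months, 130 and 71.6 CPM at 18 months and 249 CPM at 4 years. At 4 years EPCAM stood at 150 CPM, DEUP1 at 64.0, KRT18 at 21.8, FOXJ1 at 9.48, PAX8 at 2.31, GMNC at 1.01 and CCNO at 0.362, while CDH1 and MCIDAS had 0 UMIs. CDH1 had 0 UMIs in all other libraries too but replicate 3 of 18 months, so its 0 sets no library apart. The markers differed in how much lay in germ gates at 4 years. Of the 884 UMIs of DEUP1 90 were in late spermatocytes and 551 in spermatids. FOXJ1 had 65 and 25 of 131 UMIs there, GMNC 3 and 7 of 14, and EPCAM 742 and 315 of 2076. KRT18 had 3 and 4 of 301, PAX8 8 and 3 of 32, and CCNO 0 and 0 of 5. The part of ciliated epithelium in the levels of the 61 genes was not tested.

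Within the 4-year library most of the 61 genes were highest in late spermatocytes or spermatids. The 61 genes took 34.8 of every 10000 UMIs in spermatogonia, 30.1 in early spermatocytes, 103 in late spermatocytes and 89.6 in spermatids. They took 12.9 in gated endothelium and 13.5 in gated lymphocytes of the same library, where the other 5 libraries had 6.21 to 8.34 in endothelium and 2.95 to 4.05 in lymphocytes. Endothelium should lack the motile machinery but uses transport genes in primary cilia of its own, so its level is given beside the germ levels without being background for every gene. RSPH9 stood at 26.0 CPM in endothelium at 4 years and at 0 to 1.32 CPM in that of the other 5 libraries. IFT20 stood at 178 CPM, against 78.8 to 144 CPM in the others, so endothelium held it in libraries without gated spermatids as well. The same held for CFAP52, a gene outside the IFT family, at 45.8 CPM at 4 years and 31.6 to 87.5 CPM in the others. Endothelium had a median depth of 2176 UMIs a cell at 4 years, against 4537 in spermatogonia, 7236.5 in early spermatocytes, 6835 in late spermatocytes and 2094.5 in spermatids. All stages come from 1 library, so the differences have no replicate check, and intervals cover counting error only. Among 60 genes with at least 10 UMIs over the germ gates, 34 (56.7%) were highest in late spermatocytes, against 18.9% of 11902 genes, and 21 (35.0%) in spermatids, against 26.1%. Spermatogonia were the highest stage of 0 of the 60 genes, against 25.9% of all genes, and early spermatocytes of 5, against 29.1%: IFT46, IFT74, IFT88, DNAH10 and RSPH4A. The 95% interval of the highest stage lay clear of all other stages for 21 genes of late spermatocytes, 12 of spermatids and, in early spermatocytes, for IFT74 and IFT88.

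**Figure D3:**
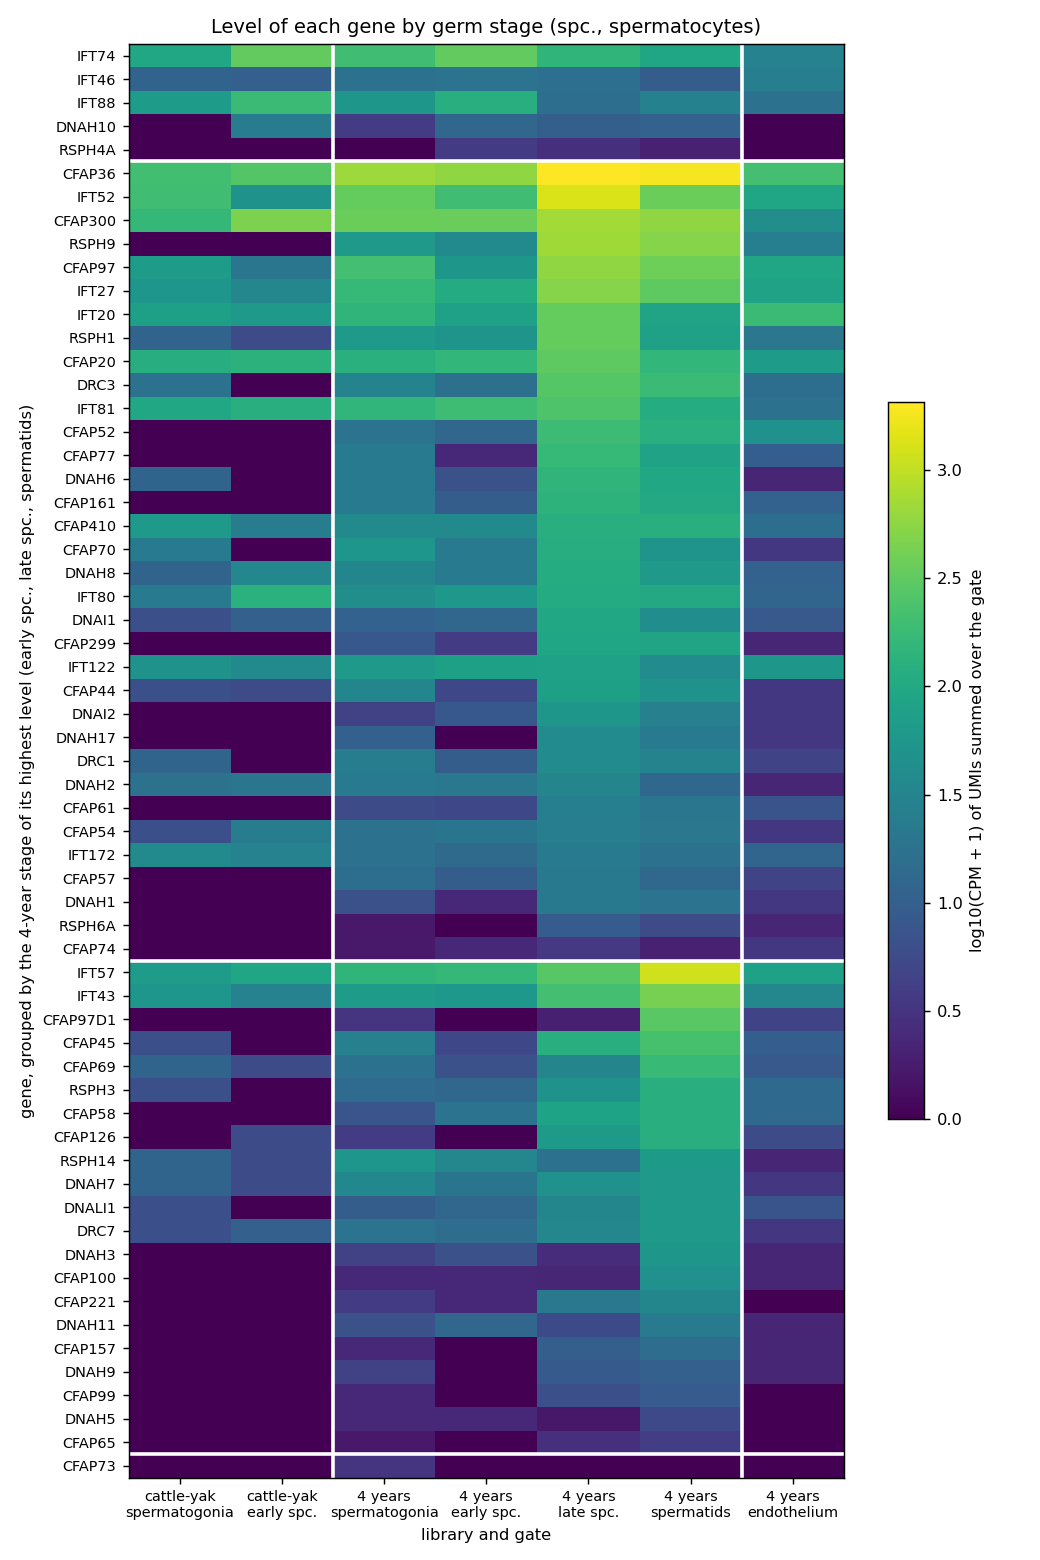
CPM of the 61 genes, as log10(CPM + 1), in the spermatogonia and early spermatocytes of the cattle-yak and in spermatogonia, early spermatocytes, late spermatocytes, spermatids and endothelium of the 4-year library, with genes grouped by the 4-year stage in which they were highest. The large blocks are the 34 genes of late spermatocytes and the 21 of spermatids.

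Most genes were higher after the step to late spermatocytes. Late over early spermatocytes, 38 of the 53 genes with at least 10 UMIs in both sums together were at least 2-fold higher and 4 at least 2-fold lower, where 25.0% of all genes were higher and 43.0% lower. The median ratio was 4.81, against 0.640 for all genes, and 4.28 with the 6 genes at 0 in early spermatocytes set to their bound of 3 UMIs. RSPH9 had 58.8 CPM in spermatogonia, 35.8 in early spermatocytes, 687 in late spermatocytes and 510.5 in spermatids, against 26.0 CPM in endothelium, a late over early ratio of 19.2 (95% interval 13.0 to 29.8). DRC3 had 29.1, 15.7, 272 and 181 CPM over the same 4 stages and 14.9 CPM in endothelium, a ratio of 17.3 (9.62 to 34.8). DNAH6 had 22.7, 5.72, 148 and 95.6 CPM, against 1.24 CPM in endothelium, a ratio of 25.8 (10.0 to 95.2). All 3 were lowest in early spermatocytes among germ stages and highest in late ones. CFAP77 had 1 UMI in early spermatocytes and 166 CPM in late ones (ratio 116, 20.8 to 4602), and CFAP126, known as Flattop, was at least 14.8-fold higher in late spermatocytes, against 0 UMIs in early ones. DNAH17, with 0 UMIs in early spermatocytes, was at least 9.02-fold higher in late ones. By family, 18 of 21 CFAP, 6 of 9 DNAH, 4 of 5 RSPH, all 3 DRC, both DNAI genes and DNALI1 were at least 2-fold higher, but 4 of 12 IFT genes.

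The IFT genes were at odds with one another at this step, and the 2 that were at least 2-fold lower belong to the core of the B complex. IFT52 had 337 CPM in spermatogonia, 197 in early spermatocytes, 1314 in late spermatocytes and 367 in spermatids, and IFT20 had 147, 78.7, 337 and 84.3 CPM, against 178 CPM in endothelium. In spermatids IFT20 was thus lower than in endothelium, and so was IFT46 (8.43 CPM in spermatids, against 24.8 in endothelium). IFT88 had 55.3 CPM in spermatogonia, 123 in early spermatocytes, 14.7 in late spermatocytes and 27.8 in spermatids, so late over early spermatocytes it stood at 0.120 (0.082 to 0.173). IFT74 had 197, 326, 147 and 86.7 CPM, a ratio of 0.449 (0.382 to 0.529). Both were highest in early spermatocytes, as were IFT46, DNAH10 and RSPH4A. The other genes at least 2-fold lower were RSPH14, at 0.486 (0.291 to 0.835), and DNAH11, at 0.391. DNAH11 rested on 14 UMIs in late and 8 in early spermatocytes. The interval lay below 1 for 3 of these 4 genes, and that of DNAH11 included 1.

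Between late spermatocytes and spermatids 39 of 59 genes stayed within 2-fold. Spermatids over late spermatocytes, 10 of the 59 were at least 2-fold higher and 10 lower, where 28.8% of all genes were higher and 28.3% lower. Both shares of the 59 genes lie below those of all genes. The median ratio was 0.784, against 0.836 for all genes. CFAP97D1 lay mostly in one stage, with 583 UMIs in spermatids, against 3 in late spermatocytes, 0 in early spermatocytes and 3 in spermatogonia; the ratio of spermatids over late spermatocytes was 301 (102 to 1464). CFAP100, whose Chlamydomonas counterpart anchors inner arms, had 46.6 CPM in spermatids, against 1.28 in late spermatocytes (36.4, 13.8 to 136). The inner-arm heavy chain DNAH3 had 55.0 CPM in spermatids, against 1.60 in late spermatocytes (34.4, 14.3 to 108). In late spermatocytes CFAP100 and DNAH3 were close to their endothelial level of 1.24 CPM each. CFAP97D1, at 0.960 CPM in late spermatocytes, lay below its 3.72 CPM in endothelium, with overlapping intervals. These late and endothelial levels rest on 1 to 5 UMIs a gene. All 3 genes stood far above their endothelial level in spermatids. IFT57 was higher too, with 1176 CPM in spermatids, against 283 in late spermatocytes (4.16, 3.85 to 4.50), and CFAP69 stood at 5.52 (4.40 to 6.97). In the other direction IFT52 was at 0.279 (0.258 to 0.302), IFT20 at 0.250 (0.212 to 0.295) and the spoke head gene RSPH1 at 0.231 (0.194 to 0.273). CFAP36 moved little, with 1862 CPM in spermatids, against 2050.0 in late spermatocytes.

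Against endothelium, 51 of 56 genes were at least 2-fold higher in spermatids and 2 (IFT20 and IFT46) lower, where 41.5% of all genes were higher and 35.2% lower. In late spermatocytes 48 of 54 were at least 2-fold higher than in endothelium and 0 lower, where 36.1% were higher and 34.6% lower. Shares of cells were also set at equal depth. With each cell thinned to 1000 UMIs, RSPH9 was seen in 7.65% of spermatogonia, 3.70% of early spermatocytes, 48.9% of late spermatocytes and 35.1% of spermatids, against 3.04% of endothelium. Unthinned, these shares were 16.7%, 19.0%, 84.0% and 62.6%, against 7.27%. Thinning left out shallower cells, so 183 of 204 spermatogonia, 81 of 84 early spermatocytes, 227 of 237 late spermatocytes, 336 of 414 spermatids and 263 of 289 endothelial cells were used. CFAP97D1 was seen in 21.1% of thinned spermatids and in 0% of the other germ gates, against 0.760% of endothelium; a count of 0 allows a share of up to 1.64% of spermatogonia, 3.70% of early spermatocytes and 1.32% of late spermatocytes. The median thinned cell held UMIs of 2 of the 61 genes in spermatogonia and in early spermatocytes, of 7 in late spermatocytes and in spermatids, and of 1 in endothelium.

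Other genes of the pathway were read at the same steps. Late over early spermatocytes, 30 of 35 other axonemal genes were at least 2-fold higher and 1 lower (median ratio 7.35), where 25.0% of all genes were higher and 43.0% lower, with LRRC23 at 52.6, LRRC34 at 43.2 and NME8 at 37.6, and EFHC2 at 0.09. Of 12 dynein assembly factors 6 were higher and 0 lower, with SPAG1 at 9.28, ZMYND10 at 8.50 and PIH1D2 at 7.0. Of 25 other transport genes 5 were higher and 4 lower, with the kinesin KIF17 at 9.42 and the BBSome gene BBS2 at 0.34. Of 9 transcription factors CREM (11.6), TCFL5 (11.5), FOXJ1 (7.27) and 2 more were higher, and RFX7 (0.11) and E2F4 (0.22) lower. Spermatids over late spermatocytes, 15 of 38 other axonemal genes were at least 2-fold higher and 5 lower, where 28.8% of all genes were higher and 28.3% lower. TEKT5, a tektin, stood at 52.7, SPACA9 at 15.8 and MORN3 at 15.5, with NME8 at 0.17, LRRC23 at 0.30 and CCDC40 at 0.37. At this step 1 of 12 assembly factors was higher (PIH1D3, 5.06) and 3 lower (CCDC103, DNAAF2 and ZMYND10), 4 of 25 transport genes were higher and 8 lower, and 4 of 10 transcription factors were higher, RFX3 at 19.9 the furthest, with TCFL5 lower at 0.23. The shares of assembly factors and transport genes that were lower lie near that of all genes.

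The early spermatocyte gate against the spermatogonium gate, tested within libraries, gave no call. The test took the gates of both 18-month libraries, the 4-year library and the cattle-yak, with the library as a block. With edgeR's quasi-likelihood test 0 of 34 genes were called in either direction, as were 0% of all 7560 genes. At an unadjusted p under 0.05 it had 1 gene higher (IFT88, 0.64 ± 0.26, edgeR adjusted p = 0.566) and 0 lower, where 356 of all genes were higher and 287 lower. DESeq2 called 0 of the 34 and 0 of all 7560 genes. The early gates of 18 months carry spermatogonial UCHL1, as given above, so this test cannot decide how early spermatocytes differ from spermatogonia. With meiotic gates that must exceed UCHL1, an alternative chosen after seeing the data, only the 4-year library and the cattle-yak had enough cells. Then 4 of 17 genes were higher and 1 lower, where 16.6% of all genes were higher and 17.6% lower: IFT88 (1.76 ± 0.41, edgeR adjusted p = 0.000185), IFT80 (1.45 ± 0.45, 0.00705), IFT74 (1.31 ± 0.35, 0.00118) and CFAP300 (0.93 ± 0.32, 0.0154) rose and CFAP97 fell (-1.80 ± 0.49, 0.00183). The share of genes called lower lies below that of all genes and the share called higher somewhat above. As gated first, IFT88 had 181 CPM (128 to 248) in early spermatocytes, against 64.7 (33.4 to 113) in spermatogonia of the cattle-yak, and 123 (98.4 to 152), against 55.3 (43.7 to 69.0), at 4 years. IFT74 had 328 CPM (255 to 415), against 91.6 (53.4 to 147) in the cattle-yak, and 326 (285 to 371), against 197 (175 to 222) at 4 years. For both genes the early spermatocyte interval lay above the spermatogonial one in both libraries. CFAP300, a dynein assembly factor, did so in the cattle-yak alone, with 456 CPM (369 to 557), against 162 (109 to 231), and 362 (319 to 409), against 364 (334 to 397) at 4 years. IFT52 ran the other way, with 47.5 CPM (22.8 to 87.4), against 194 (136 to 269) in the cattle-yak, and 197 (166 to 233), against 337 (308 to 369) at 4 years.

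Counted at 4 years alone, early spermatocytes over spermatogonia had 5 of 46 genes at least 2-fold higher and 11 lower, where 10.0% of all genes were higher and 11.2% lower, and the median ratio was 0.845. Genes lower in early spermatocytes were CFAP77 (0.065), CFAP44 (0.135), CFAP45 (0.159), DNAH6 (0.252) and DNAH17 (0 against 13 UMIs, at most 0.466). In the cattle-yak 4 of 16 genes were higher and 3 lower, where 25.8% were higher and 19.8% lower. Those higher were IFT80 (5.95, 2.07 to 23.4), IFT74 (3.58, 2.08 to 6.49), CFAP300 (2.82, 1.86 to 4.40) and IFT88 (2.79, 1.43 to 5.87).

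**Figure D4:**
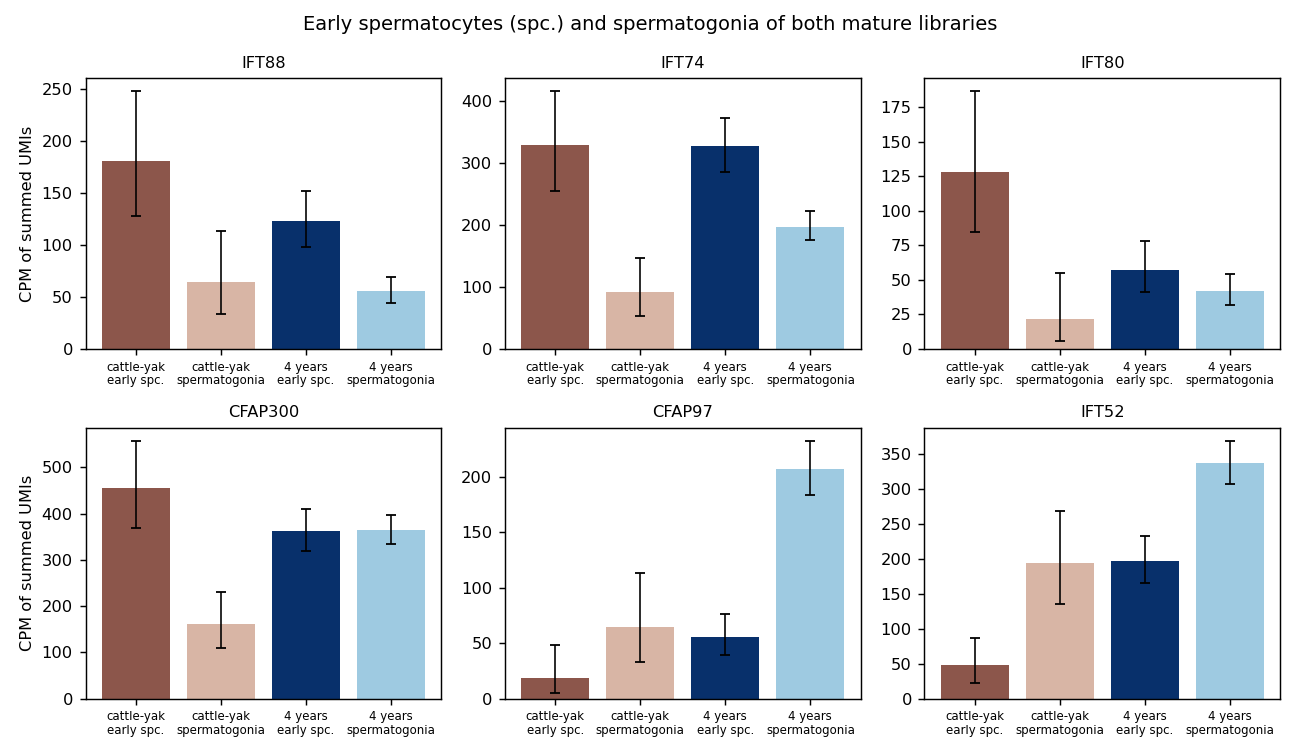
CPM with exact Poisson 95% intervals of IFT88, IFT74, IFT80, CFAP300, CFAP97 and IFT52 in early spermatocytes and spermatogonia of the cattle-yak and of the 4-year library. IFT88 stands higher in early spermatocytes of both libraries (181 and 123 CPM), and IFT52 and CFAP97 stand lower.

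In the cattle-yak the flagellar genes were low as a whole. Against the 4-year library, 55 of 61 genes were at least 2-fold lower and 1 higher, where 33.9% of all genes were lower and 17.5% higher. The median ratio was 0.0762, against 0.815 for all genes, or 0.0789 with genes at 0 set to their bound, and all 55 intervals lay below 1. With 1 library on each side there is no replicate check and no test. CFAP97D1 had 0 UMIs in the cattle-yak, against 759 at 4 years, CFAP58 had 0 against 643, CFAP100 0 against 130 and RSPH6A 0 against 54. The bounds of these ratios, from 3 UMIs, were at most 0.007, 0.008, 0.041 and 0.099. RSPH9 had 3.47 CPM in the cattle-yak, against 305 at 4 years (0.011, 0.007 to 0.017), and DNAH6 had 0.513 CPM, against 67.8 (0.008). DRC3 had 2.57 CPM, against 124 at 4 years, and DNALI1 0.385, against 22.9. The cattle-yak library held 0 gated spermatids and 3 late spermatocytes. Of the 60 genes counted over the germ gates at 4 years, 34 were highest in late spermatocytes and 21 in spermatids. Genes of these stages would therefore make up most of any low set. Fewer cells of a stage and less RNA per cell cannot be told apart here. The IFT genes were nearer to the 4-year level, with 8 of 12 lower and a median ratio of 0.306; IFT20 (0.650), IFT46 (0.776), IFT88 (0.622) and IFT172 (0.546) were within 2-fold. CFAP73 was the gene higher in the cattle-yak, on 9 UMIs, against 3 at 4 years (5.32, 1.33 to 30.6). The other lists were lower as well: 38 of 39 other axonemal genes, 10 of 12 assembly factors, 18 of 25 other transport genes and 8 of 11 transcription factors, with 0 higher in each.

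Held to the same gate, the gap was smaller. In spermatogonia, 25 of 41 genes were at least 2-fold lower in the cattle-yak than at 4 years and 1 (IFT172) higher, where 23.3% of all genes were lower and 9.60% higher. The median ratio was 0.443, against 0.909 for all genes, and 0.515 with 7 genes at 0 set to their bound. The 37 cells of the cattle-yak limit this: the interval lay below 1 for 12 of the 25, and of the 7 genes with 0 UMIs RSPH9 alone, with 0 against 83 UMIs (at most 0.275), passed 2-fold at its bound. CFAP36 had 205 CPM in spermatogonia of the cattle-yak, against 671 CPM at 4 years (0.305, 0.215 to 0.422). At 6 months its spermatogonia had 231 and 227 CPM and at 18 months 213 and 324 CPM. RSPH9 had 0 CPM in cattle-yak spermatogonia and in both libraries of 6 months, 3.36 and 4.85 CPM at 18 months and 58.8 CPM at 4 years. For these genes the 4-year spermatogonia stood above all others, in the library whose endothelium also held 211 CPM of CFAP36 and 26.0 CPM of RSPH9, against 78.8 to 119 CPM and 0 to 1.32 CPM in endothelium of the other libraries; the part of free RNA in the spermatogonial levels was not tested. With spermatogonia that hold no SYCP1, SYCP2 or SYCP3 UMI, an alternative chosen after seeing the data that left 15 cells of the cattle-yak and 72 at 4 years, 8 of 16 genes were at least 2-fold lower and 0 higher, where 24.7% of all genes were lower and 11.2% higher. Of other genes in the spermatogonium gate as first set, 19 of 30 axonemal genes, 6 of 11 assembly factors and 2 of 5 transcription factors were at least 2-fold lower and 0 higher. Of 21 transport genes 6 were lower and 2 higher, with a median ratio of 0.845, against 0.909 for all genes. Their share lower lies near the 23.3% of all genes.

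In early spermatocytes, 12 of 30 genes were at least 2-fold lower in the cattle-yak than at 4 years and 3 higher, where 18.9% of all genes were lower and 9.95% higher, with a median ratio of 0.599, against 0.949 for all genes (0.664 with bounds). The interval lay below 1 for 8 of the 12 and above 1 for 1 of the 3. RSPH9 had 0 UMIs in the cattle-yak, against 25 at 4 years (at most 0.398), RSPH1 stood at 0.092 (0.002 to 0.548) and CFAP36 at 0.456 (0.338 to 0.604). IFT80 was higher, with 128 CPM in the cattle-yak, against 57.2 at 4 years (2.24, 1.32 to 3.74). Of the other genes called higher in early spermatocytes with gates above UCHL1, IFT74 stood at 1.01 (0.756 to 1.32), CFAP300 at 1.26 (0.986 to 1.60) and IFT88 at 1.47 (0.974 to 2.17). For these 3 genes the interval of the ratio included 1. Of other genes in this gate, 11 of 17 axonemal genes were at least 2-fold lower and 2 higher, 3 of 10 assembly factors lower and 1 higher, 5 of 19 transport genes lower and 0 higher, and 2 of 5 transcription factors lower and 1 higher.

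**Figure D5:**
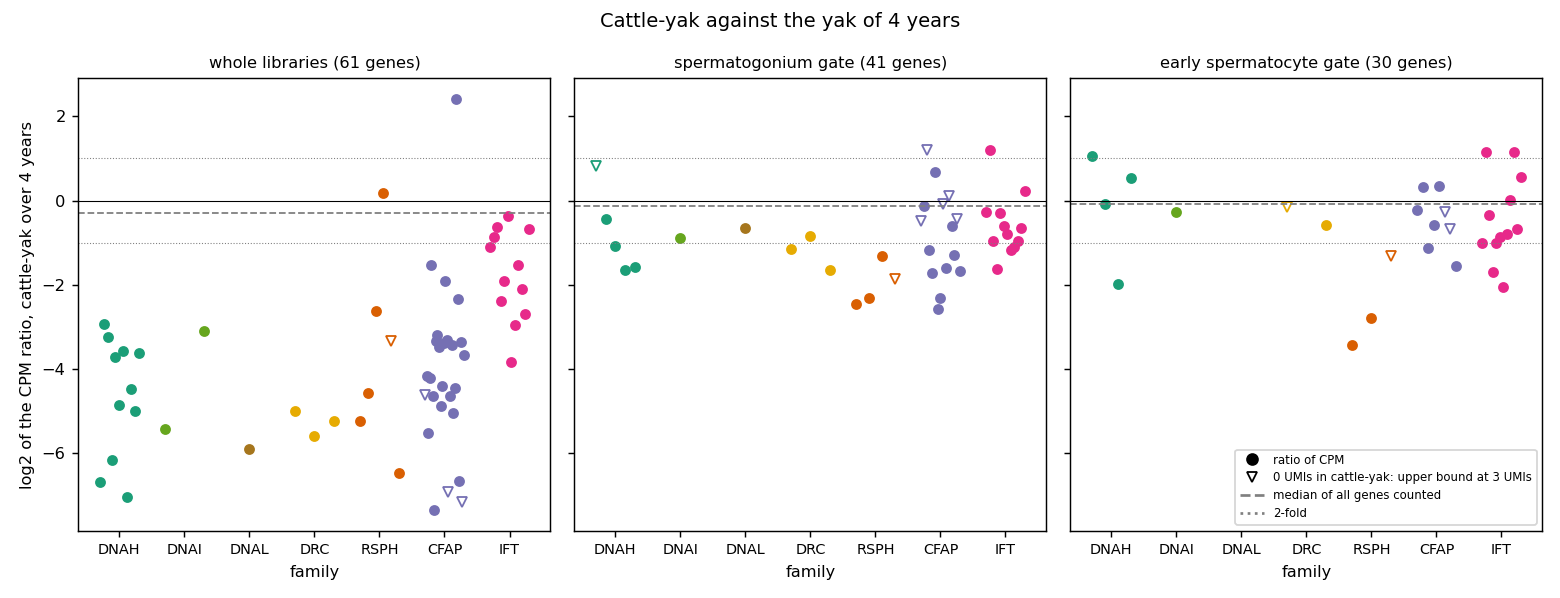
Log2 ratio of CPM, cattle-yak over 4 years, for genes with at least 10 UMIs in both sums together: 61 in whole libraries, 41 in spermatogonia and 30 in early spermatocytes; open triangles are upper bounds at 3 UMIs for genes with 0 UMIs in the cattle-yak. The median ratio is 0.0762 in whole libraries, 0.443 in spermatogonia and 0.599 in early spermatocytes.

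At 18 against 6 months few calls were made. In whole libraries 2 of 47 genes were higher and 0 lower (edgeR quasi-likelihood, Benjamini-Hochberg), where 1.86% of all genes were higher, 0.716% lower and 2.58% either. At an unadjusted p under 0.05, 22 were higher and 1 lower, where 1904 of all 13553 genes were higher and 1214 lower. DESeq2 called 13 higher and 0 lower, where it called 853 of all genes higher and 508 lower. The median log2 fold change was 1.17, against -0.04 for all genes; scaling by library totals moved these medians to 2.16 and 1.03. DRC7 had 19.2 and 5.74 CPM at 18 months, against 0.477 and 0.659 CPM at 6 months (3.27 ± 0.55, edgeR adjusted p = 0.0427). RSPH14 had 28.8 and 22.2 CPM, against 1.85 and 3.15 CPM (2.34 ± 0.41, edgeR adjusted p = 0.0461). Their groups do not overlap, but both calls were lost without replicate 1 of 6 months (adjusted p = 0.0857 for DRC7 and 0.163 for RSPH14), without replicate 2 (0.146 and 0.152) and without replicate 3 of 18 months (0.132 and 0.129); over 9 alternatives the adjusted p ran between 1.48e-06 and 0.146 for DRC7 and between 3.54e-05 and 0.163 for RSPH14. Of 56 genes with at least 10 UMIs, 47 had both 18-month libraries above both of 6 months, where 61.8% of all genes did. Of the heavy chains, 0 of 9 passed (7 higher and 0 lower at an unadjusted p under 0.05, 6 higher by DESeq2), with a median log2 fold change of 2.68, while 0 of 12 IFT genes passed (1 higher and 1 lower unadjusted, 0 by DESeq2), with a median of -0.16. DNAH8, for example, had 15.8 and 2.80 CPM at 18 months, against 0.298 and 0.293 CPM at 6 months (3.70 ± 0.76, edgeR adjusted p = 0.0603). Scaling by library totals moved the median of the heavy chains to 3.91 and that of the IFT genes to 0.907, beside 1.03 for all genes.

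Gated spermatogonia numbered 290 and 278 at 18 months, against 31 and 27 at 6 months. The part of their number in the whole-library levels was not tested. Within spermatogonia 0 of 37 genes passed in either direction, where 0.422% of all genes were higher and 0.343% lower. At an unadjusted p under 0.05 CFAP97 was higher and CFAP410 and IFT27 were lower, where 670 of all 7579 genes were higher and 441 lower. DESeq2 called 0 of the 37, where it called 18 of all genes higher and 23 lower. DRC7 had 41.0 and 26.4 CPM in spermatogonia at 18 months, against 17.3 and 42.6 CPM at 6 months, and RSPH14 had 63.9 and 92.7 CPM, against 80.7 and 185 CPM. Their groups overlap, and the log2 differences were 0.02 ± 0.66 and -0.90 ± 0.50 (edgeR, adjusted p = 0.994 and 0.394). DNAH8 had 30.9 and 15.1 CPM, against 17.3 and 21.3 CPM at 6 months (0.07 ± 0.76, edgeR adjusted p = 0.980). The median over the 37 genes was 0.02, against 0.09 for all genes. The few UMIs at 6 months, 3 of DNAH8 in each library, leave wide errors. Of the other lists, 4 of 27 axonemal genes were higher in whole libraries and 0 lower, where 1.86% of all genes were higher and 0.716% lower. They were led by EFHC2 (3.09 ± 0.56), the tektin TEKT1 (2.98 ± 0.53) and TTC29 (2.49 ± 0.47), with edgeR adjusted p of 0.0470, 0.0464 and 0.0492. These calls were lost without replicate 2 of 6 months and without replicate 3 of 18 months. The assembly factors, other transport genes and transcription factors had 0 calls among 11, 25 and 8 genes (1 higher and 0 lower, 2 and 2, and 1 and 0 unadjusted; DESeq2 called 1, 0 and 1 higher). In spermatogonia the 4 lists had 0 calls (0 higher and 1 lower of 9 assembly factors, 0 and 3 of 16 axonemal genes, 1 and 0 of 16 transport genes and 0 of 3 transcription factors unadjusted; DESeq2 called 0 of each).

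Between the libraries of 18 months, 49 of 56 genes with at least 10 UMIs were higher in replicate 3, but so were 83.5% of all genes. Within spermatogonia, replicate 3 over replicate 4, 24 of 52 genes were at least 2-fold higher and 1 lower, where 24.6% of all genes were higher and 3.65% lower, with a median ratio of 1.64, against 1.32 for all genes. Of the heavy chains 9 of 10 were at least 2-fold higher, with a median ratio of 2.47, and of the IFT genes 0 of 12, with a median of 0.965. DNAH2 had 30.3 CPM in replicate 3 and 10.2 in replicate 4 (2.96, 1.80 to 5.12), and CFAP410 had 141 and 33.4 CPM (4.23, 3.24 to 5.61). The gene lower in replicate 3 was CFAP300, at 82.0 CPM, against 168 in replicate 4 (0.488, 0.413 to 0.576). Replicate 3 also had more UMIs a spermatogonium, with a median of 5915, against 2805.5 in replicate 4. Of its barcodes with at least 300 genes it lost 38.0% to the mitochondrial limit, against 20.3% in replicate 4. The part of depth or of this limit in the difference between the replicates was not tested.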

How the data were processed

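Single-cell RNA of 6 testis libraries was analysed. The authors deposited unnormalised UMI counts for each gene in each barcode. Cell Ranger made them: the file headers name version 5.0.0, the submitters' processing notes 2.1.1. No source used here names the genome build, so positions and sequences are not reported. A barcode was kept with 300 or more genes and no more than 20% of UMIs from mitochondrial genes; doublets were removed by rank of the Scrublet score at 0.8% per 1000 barcodes, since its own threshold marked 0 or 1 barcodes in 4 libraries. Gates used 39 of 51 marker genes that the files hold. A germ gate had to outnumber all somatic marker UMIs. The gates of spermatids and spermatogonia needed 3 UMIs over at least 2 genes, and that of early spermatocytes 2 SYCP UMIs. Late spermatocytes needed at least as many UMIs of CCNA1 and AURKA as of ACRV1, SPACA1 and SPACA4. Cells were taken first as late spermatocytes, then as spermatids, early spermatocytes and spermatogonia. A cell that passed the late spermatocyte and spermatid gates was thus a late spermatocyte.

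Counts were summed per library and gate and tested with edgeR 4.0.16 in R 4.3.3 (TMM, filterByExpr, quasi-likelihood, Benjamini-Hochberg, adjusted p under 0.05). DESeq2 1.42.0, other scalings, no filter, other cell limits and gates, and leaving out each library were alternatives. The 4-year test was fitted on the 5 yak libraries. Where a side held 1 library there was no test: CPM carries exact Poisson intervals and ratios exact conditional binomial ones, both at 95% and for counting error only; a gene counted at 10 or more UMIs in both sums together, and a sum of 0 was set to 3 UMIs for its bound. On simulated counts with 200 changed genes the 4-year test recovered 12% of 4-fold and 73% of 16-fold changes, and the test of 18 against 6 months 54% and 93%.

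Named genes are the member with most UMIs in each family, the called genes of largest fold change, or, without a test, those of highest and lowest ratio; for other lists the 3 furthest. Others, such as DNAH5, DNAH8, DNAH11, RSPH4A and several IFT genes, were picked once their values were known. The members and lists were chosen with earlier results of these data known.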

Additional observations from a re-analysis of the deposited data

How the results depend on the processing

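Of 154 values of gene counts under alternatives, 127 stayed within 1.5 times the first value. At 18 against 6 months in whole libraries, the 2 genes called higher became 13 with DESeq2, 24 with library totals, 20 with no filter and 1 with a mitochondrial limit of 40%. The 0 lower became 1 with no filter. Over all genes, the 349 called in either direction became 1361, 3052, 2205 and 282 in the same order of alternatives. Leaving out a library, which left 1 in a group, also changed the counts. In spermatogonia of these ages the 0 lower ranged over 0 to 1. The 32 genes higher at 4 years ranged over 32 to 36 without a library. With meiotic gates above UCHL1, chosen after seeing the data, the early spermatocyte test called 4 higher and 1 lower. Cattle-yak over 4 years, the 1 gene higher became 0 with at least 30 UMIs in whole libraries, and 0 in spermatogonia with stricter gates, gates above UCHL1 or no SYCP UMIs, where 8 were lower with no SYCP UMIs. In early spermatocytes the 3 higher became 1 with stricter gates and 1 with at least 30 UMIs, where 6 were lower. Early spermatocytes over spermatogonia at 4 years had 2 higher and 17 lower with stricter gates, 1 higher with at least 30 UMIs and 5 lower with no SYCP UMIs. Late over early spermatocytes had 2 lower with stricter gates. Spermatids over early spermatocytes had 39 of 57 higher and 3 lower, where 33.8% of all genes were higher and 41.3% lower. With gates above UCHL1, 5 were lower in spermatids. The cause of these changes was not tested.

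Changes of sign were followed only for the genes named by rule, not for all 61. Of their log2 differences, those that changed sign were none of them called. At 18 against 6 months in whole libraries, the median of all 12 IFT genes also changed sign, from -0.16 to 0.907 with library totals. At 18 against 6 months, CFAP36 (-0.16) was 0.79 with library totals and -0.68 to 0.26 without a library, and RSPH9 (0.10) was -0.018 to 0.28 without a library. In spermatogonia, without a library, CFAP36 was -0.18 to 0.46 and IFT20 -0.12 to 1.00; IFT20 was -0.026 with doublets kept. In the early spermatocyte test CFAP36 was 0.048 with library totals, -0.089 to 0.076 without a library, 0.0046 at 40% mitochondrial RNA and 0.23 with gates above UCHL1. No paired analysis was possible because the replicate numbers of the labels are not shared between ages; with no replicate block, in place of the library as a block, the early spermatocyte test called 0 genes. Depth limits the gates of few cells: 21 early spermatocytes and 37 spermatogonia of the cattle-yak, and 31 and 27 spermatogonia at 6 months.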
